A study of Mus musculus with 12 samples.

Results

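The AP-1 and immediate early genes described here are *Fos*, *Fosb*, *Fosl2*, *Jun*, *Junb*, *Jund*, *Batf*, *Atf3* and *Ier2*. They were taken by gene symbol from the table of raw counts, where they are 9 of 49585 genes, and the rule, a list of symbols, used no measured value. RNA-seq was performed on sorted lymph node (LN) T cells of 4 groups with 3 samples each. B6 CD4+ and B6 CD8+ T cells came from C57BL/6 (B6) mice. CD8.1 and CD8.2 cells came from CD8Dual mice, also labelled 8in4, in which the altered *Cd4* locus encodes CD8α.1 and CD8β, and the intact *Cd8* locus encodes CD8α.2. CD8.1 T cells thus carry the *Cd4*-encoded CD8 co-receptor and CD8.2 T cells the *Cd8*-encoded one, and the study compared them with the CD4+ and CD8+ T cells of normal mice. All samples were labelled as TCRβ+CD62L+ cells, pooled after sorting, from male mice of 6 to 10 weeks. The study's methods add a CD44− gate that the labels do not name. No treatment or stimulation was given in the labels, and all groups passed through cell sorting. Strain and genotype changed together, so a difference between B6 and CD8Dual samples cannot be assigned to the altered *Cd4* locus alone.

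AP-1 is a dimer of basic leucine zipper (bZIP) proteins. JUN proteins pair with themselves or with FOS proteins, and BATF pairs with JUN proteins and works with IRF4 in lymphocytes. In T cells, signals from the TCR reach AP-1 genes through MAP kinases and serum response factor, and AP-1 binds together with NFAT at cytokine genes. Many members are immediate early genes, whose mRNA appears within minutes of a stimulus and decays quickly. The stimulus can be antigen receptor signalling, but warming, shear and enzyme treatment of a tissue also induce these genes, so their level in sorted cells can hold a part acquired during handling.

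The upstream sequences of *Fos*, *Fosl2*, *Junb* and *Batf* are shown because these 4 of 8 tested members, against 20.7% of all tested genes, differed between the strains, and not in 1 direction. RefSeq promoters (GRCm38.p6) matched 8 of the 9 members by symbol, and each sequence below is the 250 bases before the RefSeq start, written 5′ to 3′ on the strand of the gene. Capitals mark TGACG, the core of the cAMP response element (CRE), and TATAAA, the TATA box.
Fos, chr12:85473640-85473889, plus strand: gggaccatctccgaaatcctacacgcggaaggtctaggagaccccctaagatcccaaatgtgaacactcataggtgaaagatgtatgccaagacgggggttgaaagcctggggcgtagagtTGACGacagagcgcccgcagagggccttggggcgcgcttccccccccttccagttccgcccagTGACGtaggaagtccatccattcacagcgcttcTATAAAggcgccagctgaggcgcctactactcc
Fosl2, chr5:32136222-32136471, plus strand: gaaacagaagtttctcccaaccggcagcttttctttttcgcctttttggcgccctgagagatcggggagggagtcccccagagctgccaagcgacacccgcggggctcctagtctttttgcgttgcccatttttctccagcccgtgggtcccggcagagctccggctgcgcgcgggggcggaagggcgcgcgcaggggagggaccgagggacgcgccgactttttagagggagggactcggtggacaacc
Junb, chr8:84978749-84978998, minus strand: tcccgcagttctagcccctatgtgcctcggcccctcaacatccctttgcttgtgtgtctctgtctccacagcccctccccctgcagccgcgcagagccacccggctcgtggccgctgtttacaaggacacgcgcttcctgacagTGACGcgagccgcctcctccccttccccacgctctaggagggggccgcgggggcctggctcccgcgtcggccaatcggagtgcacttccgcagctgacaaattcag
Batf, chr12:85686470-85686719, plus strand: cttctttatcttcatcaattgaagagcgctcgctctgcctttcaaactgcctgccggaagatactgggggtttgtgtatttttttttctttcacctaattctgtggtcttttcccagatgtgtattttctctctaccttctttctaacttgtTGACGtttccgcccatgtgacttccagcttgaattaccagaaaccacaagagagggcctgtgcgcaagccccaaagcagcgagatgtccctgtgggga
In *Fos*, TGACG stood at 129 to 125 and at 66 to 62 bases before the start, and TATAAA at 33 to 28 bases. *Junb* held TGACG at 106 to 102 bases and *Batf* at 98 to 94 bases, and *Fosl2* held neither set of letters. Searched on both strands, TGACG was present in 5 of the 8 member promoters and in 17.8% of all 32851 RefSeq promoters of this length. TATAAA was present in 1 of the 8, against 12.4% of all. The full CRE TGACGTCA, which contains TGACG, the AP-1 site TGANTCA and the CArG box bound by serum response factor were in 1.55%, 6.75% and 1.47% of all promoters and in 0 of the 8. The GC box GGGCGG was present in 6 of the 8 and in 32.7% of all, and some of its matches overlap in *Fosb*. These matches are letters in a window and were not tested as binding sites. Bases further upstream were not searched, so a count of 0 does not show that a gene lacks the site. The GENCODE M21 gene start coincided with the RefSeq start for *Fos* and lay 30, 51 and 671 bases away for *Junb*, *Batf* and *Fosl2*. For the other promoters searched, the gap was 0 bases for *Jun*, 6 for *Fosb*, 1210 for *Jund* and 34706 for *Atf3*.

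The total count was 18667470 to 37110500 per sample (median 22580730). The largest library was CD8.2 replicate 3. Expression is given as CPM, counts relative to each library's total as adjusted by TMM (trimmed mean of M-values), and 3 counts corresponded to 0.0875 to 0.167 CPM, a floor that covers counting error only. Of the 49585 genes, 13118 passed the filter on low counts, among them 8 of the 9 members. The co-receptor genes matched the labels: *Cd4* averaged 969 CPM in CD4+ and 0.244 in CD8+ cells of B6 mice, 49.7 in CD8.1 and 1.47 in CD8.2 cells, while *Cd8a* averaged 1.17, 1423, 192 and 1460 CPM. *Zbtb7b*, which encodes the CD4-lineage factor ThPOK, averaged 159, 0.931, 154 and 1.91 CPM. All 11 T cell identity genes passed the filter, with *Cd3e* at 269 to 358 CPM in every sample. Differences were tested with edgeR's quasi-likelihood test in a fit of all 12 samples, p-values were adjusted over the 13118 genes, and a gene was called at an adjusted p under 0.05. Because these are bulk samples, more mRNA per cell and more cells of an expressing type cannot be told apart. The labels do not say whether the pools of a group came from different mice, so the p-values measure the spread between these samples.

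The members fell into tiers of abundance when counts were set per length. Per kb of annotated exons, *Ier2* had the highest mean over the 12 samples, 77.8 CPM per kb, followed by *Junb* with 51.2 and *Batf* with 26.1. *Fos*, *Jun* and *Fosl2* followed with 2.09, 1.53 and 0.968 CPM per kb, and *Jund*, *Fosb* and *Atf3* were lowest with 0.282, 0.181 and 0.0306, of which the *Jund* level is uncertain for reasons given with that gene. *Ier2* made up 48.6%, *Junb* 32.0% and *Fos* 1.30% of the summed level of the members. Without regard to length, the mean CPM of *Junb* and *Ier2* stood at the 89.7th and 89.8th percentile of the 13118 tested genes, and that of *Fos* and *Jun* at the 30.0th and 29.9th.

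**Figure D1:**
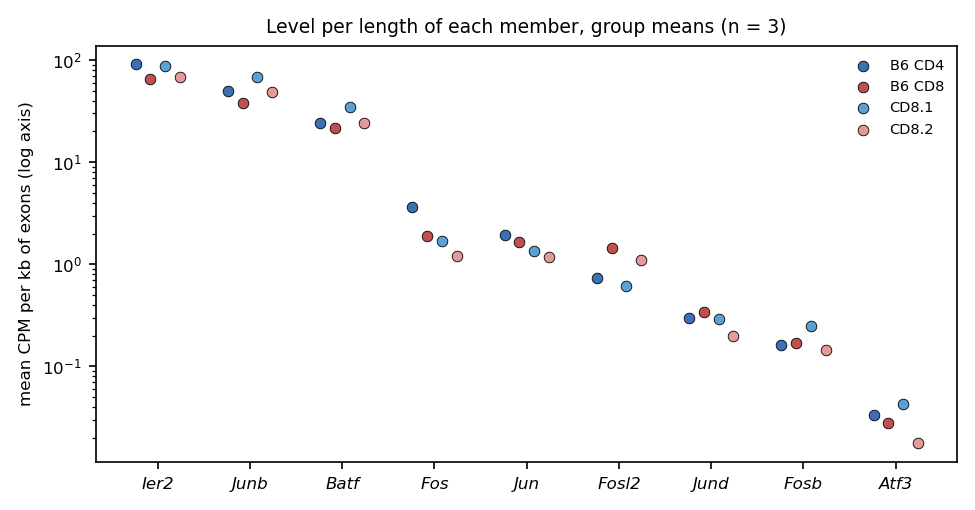
Level per length of the 9 members. Points are group means of 3 samples in CPM per kb of GENCODE M21 exons on a log axis, with 1 colour per group, and the members are ordered by their mean over the 12 samples. *Ier2*, *Junb* and *Batf* stand above the other members in each of the 4 groups.

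Among the FOS proteins, which need a JUN partner to bind DNA, *Fos* was highest in B6 CD4+ T cells and lower in CD8Dual T cells. *Fos* (ENSMUSG00000021250.13, chromosome 12, bases 85473890 to 85477273) was at 8.28, 7.59 and 9.53 CPM in B6 CD4+ samples, 3.89, 5.05 and 4.43 in B6 CD8+, 4.20, 3.89 and 3.70 in CD8.1, and 3.49, 3.06 and 1.87 in CD8.2 samples. These values rest on 55 to 224 counts. The B6 CD4+ samples lay above all 9 other samples, and the CD8.2 samples lay below all others. *Fos* was 1.90-fold higher in B6 CD4+ than in B6 CD8+ T cells (log2 fold change 0.92 ± 0.198 SE, adjusted p = 0.00269). It was 2.15-fold lower in CD8.1 than in CD4+ B6 cells (log2 fold change -1.11 ± 0.201, adjusted p = 0.00316). The other strain difference, CD8.2 against B6 CD8+, was -0.69 ± 0.212 on the log2 scale with an adjusted p of 0.0573, and the samples did not overlap. CD8.1 samples lay above CD8.2 samples by 0.51 ± 0.215 (adjusted p = 0.0886). Averaged over the lineages, *Fos* fell by 0.90 on the log2 scale in CD8Dual T cells, 1.87-fold (SE 0.146, adjusted p = 0.000873), and it remained called under each of 18 other settings.

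*Fosl2*, which encodes FRA-2, had the opposite lineage pattern. *Fosl2* (ENSMUSG00000029135.10, chromosome 5, bases 32135801 to 32157842) was at 7.96, 6.94 and 6.46 CPM in B6 CD4+ samples, 14.6, 14.2 and 12.8 in B6 CD8+, 6.83, 4.69 and 6.32 in CD8.1, and 9.11, 11.3 and 11.3 in CD8.2 samples. Every B6 CD8+ and CD8.2 sample was above every B6 CD4+ and CD8.1 sample. Its level was 1.95-fold lower in B6 CD4+ than B6 CD8+ T cells (log2 fold change -0.96 ± 0.148, adjusted p = 0.000152) and 1.78-fold lower in CD8.1 than CD8.2 cells (-0.83 ± 0.152, adjusted p = 0.000771). These lineage differences kept their call under each of 19 other settings. The mean strain difference was -0.33 ± 0.106 on the log2 scale (adjusted p = 0.0388), and this call was lost in 9 of 18 other settings. In 8 of these 1 library was left out (B6 CD4+ replicate 1 or 2, B6 CD8+ replicate 1 or 2, CD8.1 replicate 2, or CD8.2 replicate 1, 2 or 3), with values of -0.36 to -0.26. *Fosb* (ENSMUSG00000003545.3, chromosome 7, bases 19302696 to 19310051), a close relative of *Fos*, was near the limit of measurement, with 10 to 38 counts. It was at 1.53, 1.64 and 1.47 CPM in CD8.1 samples, each above the other 9 samples, which ranged from 0.556 to 1.31 CPM. Its difference from CD8.2 T cells, 0.73 ± 0.325 on the log2 scale, had an adjusted p of 0.110 and that from B6 CD4+ T cells, 0.62 ± 0.326, one of 0.226.

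Of the JUN genes, *Junb* was highest in CD8.1 cells and lowest in B6 CD8+ T cells. JUNB partners BATF and FOS proteins in T cells. *Junb* (ENSMUSG00000052837.6, chromosome 8, bases 84974484 to 84978718) was at 113, 114 and 117 CPM in B6 CD4+ samples, 94.5, 88.7 and 79.6 in B6 CD8+, 121, 172 and 179 in CD8.1, and 115, 113 and 110 in CD8.2 samples. CD8.1 replicate 1 was near the B6 CD4+ and CD8.2 samples, while the other two CD8.1 samples stood well above them. *Junb* was above B6 CD8+ in B6 CD4+ T cells by 0.38 ± 0.116 on the log2 scale (adjusted p = 0.0253), and in CD8.1 above CD8.2 cells by 0.48 ± 0.115 (adjusted p = 0.00575). The first call was lost without any of 5 of the 6 B6 libraries (CD4+ replicates 1, 2 and 3 and CD8+ replicates 2 and 3), with log2 fold changes of 0.31 to 0.39 and adjusted p-values of 0.0510 to 0.103, while the second held without any library.

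Between the strains, *Junb* was 0.46 ± 0.115 higher on the log2 scale in CD8.1 than B6 CD4+ T cells (adjusted p = 0.0179) and 0.36 ± 0.116 above the B6 CD8+ level in CD8.2 T cells (adjusted p = 0.0703). Without CD8.1 replicate 1 the first of these was 0.60 (adjusted p = 0.000108), and without CD8.1 replicate 2 or 3 it was 0.39 and 0.35 (adjusted p = 0.0761 and 0.0682). Leaving out B6 CD4+ replicate 1 or 2 also ended the call, at 0.43 in each case, as did a fit of only these groups (0.45, adjusted p = 0.0797). The mean over the lineages was 0.41 ± 0.0816 (adjusted p = 0.00312) and held under each of 18 other settings. The end of *Junb* shares 173 of its 2301 exonic bases with *Prdx2* on the other strand. *Prdx2* was itself 0.35 higher on the log2 scale in CD4+ than CD8+ cells of B6 mice and 0.28 above the CD8.2 level in CD8.1 cells (adjusted p = 0.0120 and 0.0365), so reads from the shared stretch cannot be told apart unless strand was used in counting, and the sources used here do not give that.

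*Jun*, the founding member of the JUN proteins, had wide spreads within groups. *Jun* (ENSMUSG00000052684.4, chromosome 4, bases 95049034 to 95052222) was at 8.23, 5.35 and 4.85 CPM in B6 CD4+ samples, 5.53, 6.51 and 3.90 in B6 CD8+, 3.77, 4.29 and 4.75 in CD8.1, and 5.02, 3.11 and 3.12 in CD8.2 samples. The CD8.1 samples all lay below the B6 CD4+ samples, the other 3 main pairs of groups overlapped, and none of the 4 was called. Averaged over the lineages, the strain difference was -0.52 ± 0.177 on the log2 scale with an adjusted p of 0.0506, and 6 of 18 other settings put it under 0.05, among them the fits without B6 CD4+ replicate 3, B6 CD8+ replicate 3 or CD8.2 replicate 1 (-0.61, -0.62 and -0.65). *Jund* (ENSMUSG00000071076.6, chromosome 8, bases 70698949 to 70700616), known as the JUN gene with the steadiest expression, had only 6 to 15 counts per sample, 0.233 to 0.722 CPM, and no call. Its counts are uncertain, because 877 of its 1668 exonic bases lie under exons of the antisense gene *Gm11175* (2 to 10 counts). Its GENCODE M21 start lies 1210 bases downstream of the RefSeq start, and the gene model used in counting is not given in the sources used here, so its level is also uncertain. *Jund* also had the highest GC content of the members, 67.1% over its longest transcript, which is the 99.8th percentile of the tested genes. With these counts the 95% interval of its difference between B6 CD4+ and CD8+ T cells ran from -1.08 to 0.69 on the log2 scale.

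*Batf*, which encodes a bZIP protein without a transactivation domain, was highest in CD8.1 T cells. *Batf* (ENSMUSG00000034266.5, chromosome 12, bases 85686669 to 85709087) was at 30.1, 31.6 and 40.8 CPM in B6 CD4+ samples, 30.6, 31.7 and 28.1 in B6 CD8+, 45.1, 50.0 and 49.7 in CD8.1, and 38.1, 29.8 and 34.4 in CD8.2 samples. Every CD8.1 sample was above every other sample, and the other 3 groups overlapped. *Batf* was 1.41-fold higher in CD8.1 than in CD8.2 cells (log2 fold change 0.50 ± 0.116, adjusted p = 0.00457) and 1.41-fold higher than in B6 CD4+ T cells (0.50 ± 0.116, adjusted p = 0.0126). The second call was lost without B6 CD4+ replicate 1 or 2, with 0.40 and 0.43 and adjusted p-values of 0.0697 and 0.0663. Its difference between B6 CD4+ and CD8+ T cells was 0.18 ± 0.117 (adjusted p = 0.317). The test of whether the lineage difference was larger in CD8Dual mice gave 0.32 ± 0.165 and an adjusted p of 0.427, so the lineage differences of the strains were not shown to differ.

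*Atf3*, a stress-induced member of the ATF branch, was barely detected. *Atf3* (ENSMUSG00000026628.13, chromosome 1, bases 191170296 to 191218039) had 0 to 5 counts per sample, 0 counts in 4 samples and 19 counts over all 12, and it did not pass the filter. *Ier2*, an immediate early gene that is not itself a bZIP factor, was the most abundant member per length. *Ier2* (ENSMUSG00000053560.4, chromosome 8, bases 84661331 to 84662852) was at 128, 131 and 153 CPM in B6 CD4+ samples, 105, 99.99 and 90.0 in B6 CD8+, 121, 137 and 142 in CD8.1, and 105, 103 and 105 in CD8.2 samples. All B6 CD4+ and CD8.1 samples were above all B6 CD8+ and CD8.2 samples. *Ier2* was higher by 0.48 ± 0.0877 on the log2 scale in B6 CD4+ than CD8+ T cells (adjusted p = 0.000693) and by 0.35 ± 0.0876 in CD8.1 than CD8.2 cells (adjusted p = 0.00746), and these calls held under each of 19 other settings. Its mean strain difference was 0.02, with a 95% interval of -0.11 to 0.15 on the log2 scale.

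**Figure D2:**
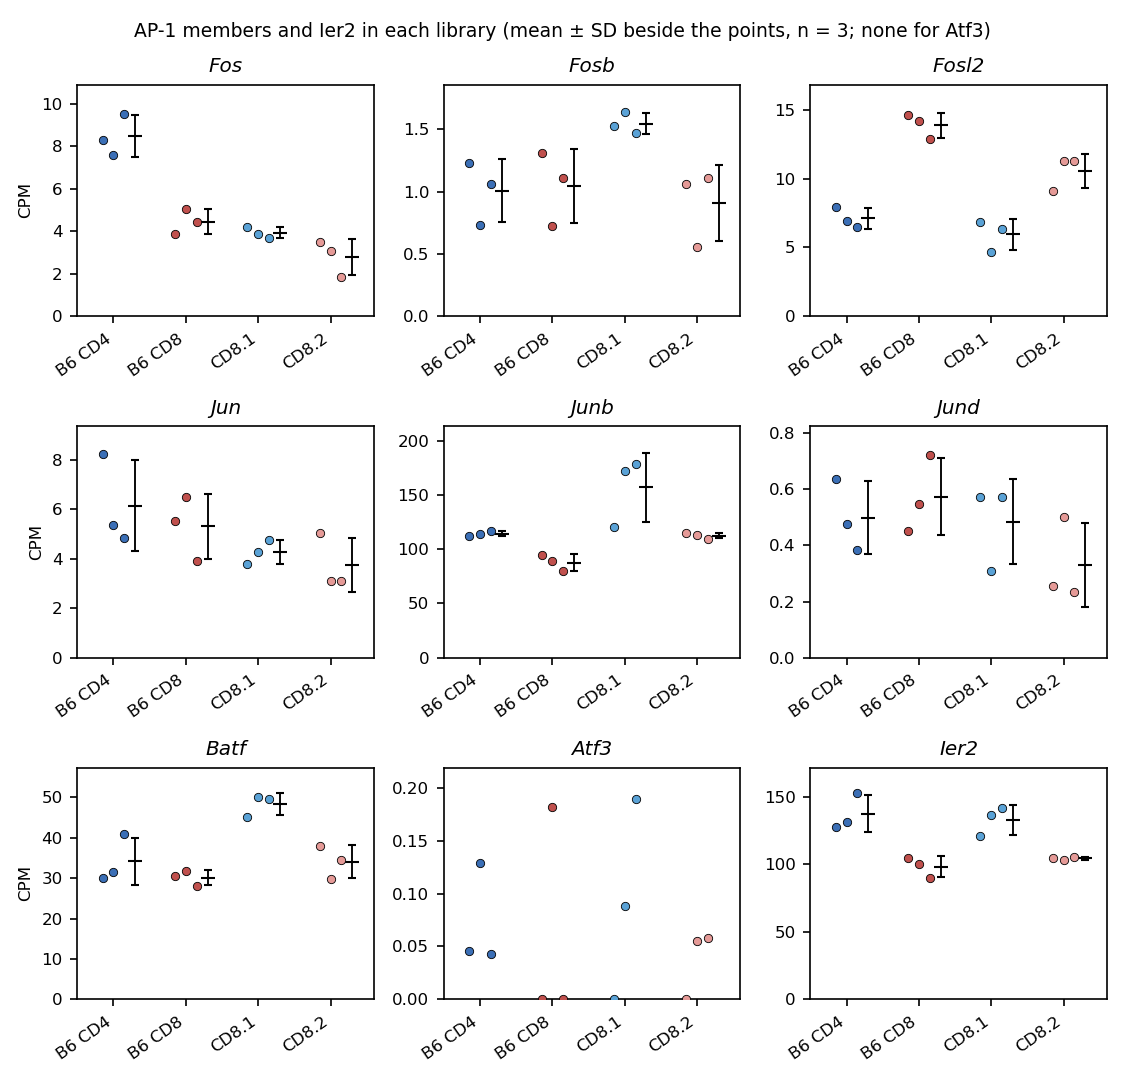
CPM of each member in each sample. Points are the 12 samples by group and bars give mean ± SD (n = 3), with none for *Atf3*, which had 0 to 5 counts. Each panel has its own axis from 0. The B6 CD4+ samples stand apart for *Fos*, the CD8.1 samples for *Batf*, and *Fosl2* is higher in every B6 CD8+ and CD8.2 sample.

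The members were then set against all tested genes, with a call defined as an adjusted p under 0.05 in edgeR's quasi-likelihood test. Between the B6 groups, 4 of 8 tested members were called (*Fos*, *Junb* and *Ier2* higher, *Fosl2* lower), where 23.1% of all genes were called, 11.4% higher and 11.7% lower. The samples of the groups did not overlap for the same 4 members, and for 39% of all genes. Between CD8.1 and CD8.2 cells, 4 of 8 were called (*Junb*, *Batf* and *Ier2* higher, *Fosl2* lower), against 28.7% of all genes, 14.9% higher and 13.8% lower. Here 6 members did not overlap, including *Fos* and *Fosb*, against 40.7% of all genes. *Junb*, *Ier2* and *Fosl2* were thus called in the same direction in each strain. The interaction, which tests whether the lineage difference differed between the strains, called 0 of 8 members and had 0 with an unadjusted p under 0.05, against 1.87% of all genes called. DESeq2 and limma-voom also called 0, where 3.13% and 1.73% of all genes were called. The share of all genes rose to 10.1% without CD8.1 replicate 1, with 0 members called, and was 1.23% to 1.84% without any other library. The 95% interval of the interaction of *Fos* ran from -1.03 to 0.21 on the log2 scale, and that of *Fosl2* from -0.32 to 0.59.

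Between the strains, 3 of 8 members were called in CD8.1 against B6 CD4+ T cells (*Junb* and *Batf* higher, *Fos* lower), where 12.8% of all genes were called, 6.94% higher and 5.82% lower. Without B6 CD4+ replicate 1 or 2, only *Fos* was called, where 5.69% and 6.5% of all genes were. The samples of 5 members did not overlap, against 25.5% of all genes. In CD8.2 against B6 CD8+ T cells, 0 of 8 members were called and 3 had an unadjusted p under 0.05 (*Fos*, *Fosl2* and *Junb*), against 7.94% of all genes called. DESeq2 called *Fos* and *Junb* here (11.2% of all genes) and limma-voom called *Fos* (8.54%). The samples of these 3 members did not overlap, as for 36.3% of all genes. For the mean of CD8.1 and CD8.2 against the mean of the B6 groups, 4 of 8 were called (*Junb* and *Batf* higher, *Fos* and *Fosl2* lower), against 20.7% of all genes, 10.3% higher and 10.4% lower. The median absolute log2 fold change of the 8 members was 0.29 between the B6 groups, 0.51 between CD8.1 and CD8.2, and 0.37 for the mean strain difference, where all genes had 0.20, 0.24 and 0.15. Under the study's definition of a differentially expressed gene, more than 5-fold with an unadjusted p under 0.05, 0 members qualified in any of the 4 pairs, against 4.73% of all genes in at least 1 pair.

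**Figure D3:**
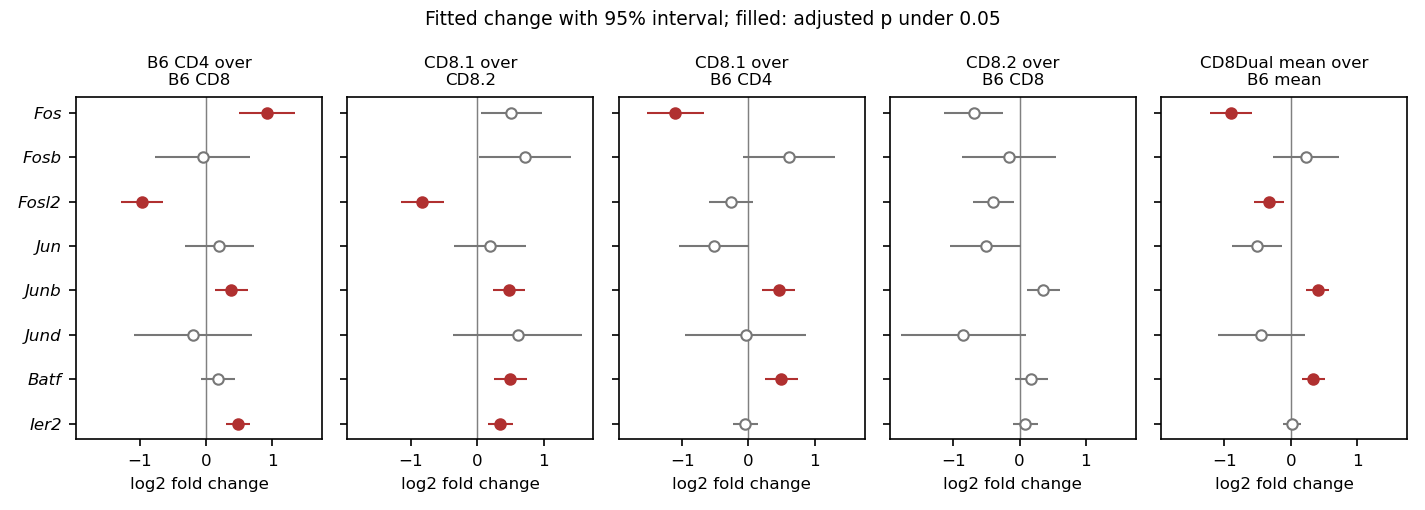
Log2 fold changes of the 8 tested members in 4 pairs of groups and for the mean strain difference. Points are fitted values, lines are 95% intervals, and filled red points have an adjusted p under 0.05. *Fosl2* lies below 0 in each of the lineage panels, and *Fos* lies below 0 and *Junb* above 0 in each of the strain panels.

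The order of group levels was read from all pairs of groups, including CD8.1 against B6 CD8+, where 39.1% of all genes were called, and CD8.2 against B6 CD4+, where 26.9% were. For *Fos* the order was CD4+ and then CD8+ cells of B6 mice, CD8.1 and CD8.2, and only the step from the first to the second was called. For *Fosl2* it was B6 CD8+, CD8.2, B6 CD4+ and CD8.1, with the step between CD8.2 and B6 CD4+ called (adjusted p = 0.0105). *Junb* and *Batf* shared the order CD8.1, B6 CD4+, CD8.2 and B6 CD8+, with only the first step called for each. *Ier2* followed the order B6 CD4+, CD8.1, CD8.2 and B6 CD8+, with only the step between CD8.1 and CD8.2 called. No step was called for *Fosb*, *Jun* or *Jund*. The widest gap was that of *Fos* between CD8.2 and B6 CD4+ T cells, 3.07-fold, and *Jun* was also called in that pair, 1.64-fold lower in CD8.2 T cells (adjusted p = 0.0468). The *Jun* samples of these groups overlapped, with CD8.2 replicate 1 at 5.02 CPM and B6 CD4+ replicate 3 at 4.85 CPM. This pair of groups was not run under the other settings.

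The other bZIP genes of the AP-1, ATF, CREB, MAF and CNC families held 8 called of 22 tested between B6 CD4+ and CD8+ T cells (8 higher, 0 lower) and 8 of 22 between CD8.1 and CD8.2 cells (7 higher, 1 lower). *Maf*, which drives cytokine and helper programs in CD4+ T cells, was higher by 4.66 ± 0.241 on the log2 scale in B6 CD4+ T cells and by 4.39 ± 0.216 in CD8.1 T cells (adjusted p = 8.39e-10 and 6.30e-10). *Xbp1*, a factor of the unfolded protein response, was higher by 0.65 and 0.77. *Nfe2l2*, which encodes the oxidative stress factor NRF2, was higher by 0.58 and 0.47, and each of these differences was called. *Bach2*, a repressor that competes with AP-1 for its sites, was higher by 0.56 ± 0.101 and 0.29 ± 0.101 in the same comparisons and -0.42 ± 0.101 in CD8.1 against B6 CD4+ T cells (adjusted p = 0.0139). Between the strains the list held 3 called genes in CD8.1 against B6 CD4+ and 1 in CD8.2 against B6 CD8+ T cells, 13.6% and 4.55% beside 12.8% and 7.94% of all genes. In the lineage comparisons the called share was 36.4% each time, beside 23.1% and 28.7% of all genes. The median log2 fold change of the list was 0.14 and 0.18 in the lineage comparisons, and that of all genes was -0.0011 and -0.0047.

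Among 8 transcription partners of AP-1, 3 were called between B6 CD4+ and CD8+ T cells and 6 between CD8.1 and CD8.2 cells, all higher in the CD4+ and CD8.1 cells, 37.5% and 75% beside 23.1% and 28.7% of all genes. *Irf4*, whose protein binds DNA with BATF and JUN, was at a mean of 27.2 CPM in CD4+ and 8.64 in CD8+ cells of B6 mice, 35.4 in CD8.1 and 17.1 in CD8.2 cells. It was the partner called between CD8.2 and B6 CD8+ T cells with a higher level in CD8.2 (0.99 ± 0.168, adjusted p = 0.00241). *Runx1* was higher by 1.47 ± 0.115 in B6 CD4+ T cells and by 1.13 ± 0.113 in CD8.1 cells (adjusted p = 1.06e-07 and 2.36e-06). *Ets1* fell by 0.41 ± 0.108 in CD8.1 against B6 CD4+ T cells (adjusted p = 0.0231), and *Nfat5* fell by 0.34 in CD8.2 against B6 CD8+ T cells (adjusted p = 0.0453). Upstream of AP-1, 15 of 15 MAP kinases and serum response factor partners were tested, and 2 and 3 were called in the lineage comparisons, 13.3% and 20%, which is below the 23.1% and 28.7% of all genes. *Mapk3*, which encodes ERK1, was higher by 0.40 ± 0.0940 in B6 CD4+ and by 0.63 ± 0.0943 in CD8.1 cells (adjusted p = 0.00509 and 0.000137). *Elk4* was lower in each CD8Dual group than in its B6 counterpart, with log2 fold changes of -0.40 and -0.34 (adjusted p = 0.0101 and 0.0310). *Elk1* was called only between CD8.1 and CD8.2 cells, 0.47 ± 0.119 higher in CD8.1, and its interaction was not called (adjusted p = 0.400). *Elk3* had a log2 fold change of -0.47 ± 0.0773 for B6 CD4+ over CD8+ T cells and of -0.01 for CD8.1 over CD8.2, with an interaction of 0.46 ± 0.109 (adjusted p = 0.0421). It was the 1 interaction called among 45 tested genes of these 3 lists, 2.22% beside 1.87% of all genes, and the call was lost in 11 of 18 other settings.

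Most of the other immediate early genes that were called between the lineages were higher in B6 CD4+ and CD8.1 cells. All 27 on the list were tested. Between B6 CD4+ and CD8+ T cells 18 were called (15 higher, 3 lower), 66.7%, and between CD8.1 and CD8.2 cells 13 were called (12 higher, 1 lower), 48.1%, beside 23.1% and 28.7% of all genes. *Nr4a1*, which encodes the TCR-responsive receptor NUR77, was at 57.8 CPM in CD4+ and 13.0 in CD8+ cells of B6 mice, 63.0 in CD8.1 and 13.5 in CD8.2 cells, differences of 2.15 ± 0.212 and 2.23 ± 0.212 on the log2 scale (adjusted p = 1.64e-06 and 1.35e-06). *Dusp5*, an ERK phosphatase, was higher by 1.19 ± 0.106 and 1.48 ± 0.106, and *Csrnp1* by 0.77 ± 0.0875 and 0.53 ± 0.0873, all of them called. *Ier3* went the other way, with log2 fold changes of -4.81 and -2.03, at 0.0886 CPM in B6 CD4+ and 2.59 CPM in B6 CD8+ T cells. Its B6 CD4+ samples were at 0.136, 0.129 and 0 CPM, at or under the level of 3 counts, so the size of the first change is uncertain. Between the strains 6 of 27 were called in each pair, all of them higher in CD8Dual T cells, 22.2% beside 12.8% and 7.94% of all genes, and the interaction called 0. *Fos* was thus called lower in CD8.1 than B6 CD4+ T cells where none of these 27 was.

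**Figure D4:**
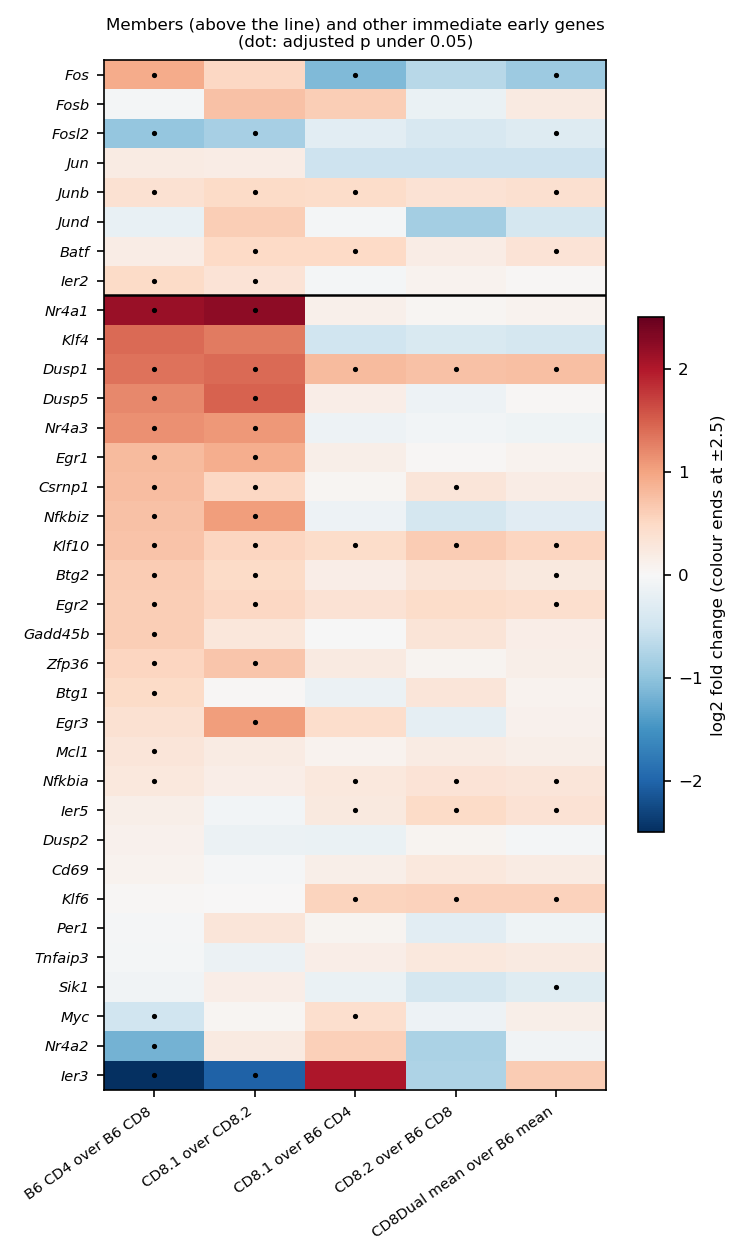
Log2 fold changes of the 8 tested members, above the line, and of 27 other immediate early genes, below it, in 4 pairs of groups and for the mean strain difference. Red is higher and blue lower in the group named first, colours end at ±2.5, and a dot marks an adjusted p under 0.05. *Nr4a1* is the reddest row in the lineage columns, and *Fos* is the only row with a dot on blue in the column of CD8.1 over B6 CD4.

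Genes known to rise during tissue dissociation and cell handling, mostly heat shock genes, were followed beside the members because all cells were sorted. Their summed level was 3855 to 3971 CPM in CD4+ and 4733 to 5430 in CD8+ samples of B6 mice, 4546 to 4981 in CD8.1 and 5887 to 5914 in CD8.2 samples, with 19 genes in the sum. B6 CD4+ samples were the lowest for this sum and CD8.2 samples the highest. Much of the sum came from *Hspa8* and *Hsp90ab1*, at means of 1368 and 1202 CPM of a mean sum of 3928 CPM in B6 CD4+ samples. Of 13 tested genes, 5 were called lower and 2 higher in B6 CD4+ than CD8+ T cells, and 7 lower and 1 higher in CD8.1 than CD8.2 cells. These were 53.8% and 61.5%, beside 23.1% and 28.7% of all genes. *Socs3* went the other way, with means of 77.3 CPM in CD4+ and 49.9 in CD8+ cells of B6 mice, 96.2 in CD8.1 and 68.6 in CD8.2 cells. *Dnajb4* averaged 16.9 CPM in CD4+ and 13.6 in CD8+ cells of B6 mice. Between the strains 5 and 6 were called, all higher in CD8Dual T cells, 38.5% and 46.2% beside 12.8% and 7.94% of all genes. The chaperone genes *Dnaja1* and *Hsph1* were higher by 0.57 and 0.62 on the log2 scale in CD8.1 than B6 CD4+ T cells, and by 0.69 and 0.68 in CD8.2 than B6 CD8+ T cells. *Hspa8* was higher by 0.55 and 0.40 in these pairs, and *Hsp90ab1* had log2 fold changes of -0.49 and -0.37 for CD4+ and CD8.1 T cells within their strains. The inducible genes *Hspa1a* and *Hspa1b* lay at or under 1.19 CPM in all samples. The part of handling in the levels of the members was not tested.

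Markers of regulatory T cells, which express *Batf* and *Junb*, were highest in CD8.1 samples, as were *Batf* and *Junb*. The markers were also higher in B6 CD4+ than in CD8.2 samples, a pair in which *Batf* and *Junb* were not called (adjusted p = 0.993 and 0.917). The summed level of 7 markers was 349 to 448 CPM in CD4+ and 93.1 to 102 in CD8+ samples of B6 mice, 722 to 866 in CD8.1 and 97.1 to 111 in CD8.2 samples. All 7 were called higher in CD8.1 than in CD8.2 and than in B6 CD4+ T cells, where 28.7% and 12.8% of all genes were called. *Foxp3* averaged 38.3 CPM in CD4+ and 0.333 in CD8+ cells of B6 mice, 140 in CD8.1 and 1.24 in CD8.2 cells, and *Il2ra* averaged 33.6, 1.08, 95.5 and 1.73 CPM. *Tnfrsf4* and *Izumo1r* were higher by 1.11 and 0.77 on the log2 scale in CD8.1 than B6 CD4+ T cells. Their part in the higher *Batf* and *Junb* of CD8.1 T cells was not tested. The summed level of 8 memory and effector markers was 171 to 214 CPM in CD4+ and 1144 to 1263 in CD8+ samples of B6 mice, 421 to 455 in CD8.1 and 735 to 784 in CD8.2 samples, and that of 8 naive markers was 5435 to 6319 CPM over all samples.

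Markers of cell types other than T cells were also detected. The summed level of 9 B cell markers was 738 to 792 CPM in CD4+ and 733 to 780 in CD8+ samples of B6 mice, 943 to 1230 in CD8.1 and 727 to 977 in CD8.2 samples, with *Ighm* as its largest part (454 to 639 CPM). No B cell marker was at 0 in any sample. Of these 9 markers, 4 were called higher and 0 lower in each CD8Dual group against its B6 counterpart, 44.4% beside 12.8% and 7.94% of all genes. *Junb* went in the same direction and *Fos* in the reverse. Between the lineages, 6 were called higher and 2 lower in B6 CD4+ than CD8+ T cells (88.9%, median log2 fold change 0.93). In CD8.1 against CD8.2 cells, 4 were higher and 0 lower (44.4%, median 0.68), beside 23.1% and 28.7% of all genes. *Junb* and *Ier2* were called in this direction in both strains, *Fos* in B6 mice and *Batf* between CD8.1 and CD8.2 cells. *Fos* was also higher in CD8.1 than CD8.2 cells, by 0.51 on the log2 scale, without a call. *Fosl2* was called in the reverse direction in both strains. The near-equal sums of the B6 groups hide the calls between them, because *Ighm* averaged 475 CPM in CD4+ and 580 in CD8+ cells and was 1 of the 2 called lower, with *Cd79b*. The sum of 9 myeloid and dendritic cell markers, mostly *Cst3*, was 66.6 to 82.5 CPM in CD4+ and 81.9 to 85.3 in CD8+ samples of B6 mice, 99.4 to 109 in CD8.1 and 80.8 to 104 in CD8.2 samples, with *S100a8* and *S100a9* at 0 in 6 samples each. Of 7 tested, 4 were called higher and 0 lower in CD8.1 than B6 CD4+ T cells (*Lyz2*, *Csf1r*, *Fcer1g* and *Cst3*, median of the 7 1.19), the pair in which *Junb* and *Batf* were called higher. This was 57.1%, beside 12.8% of all genes. In the other pairs, 1 was higher and 1 lower in B6 CD4+ than B6 CD8+, 2 higher and 1 lower in CD8.1 than CD8.2, and 1 higher and 1 lower in CD8.2 than B6 CD8+ T cells. These were 28.6%, 42.9% and 28.6%, beside 23.1%, 28.7% and 7.94% of all genes. The sum of 4 NK and NKT cell markers was 0.273 to 10.4 CPM, highest in B6 CD8+ samples, and *Zbtb16* was at 0 in 8 samples. What these cells added to the level of any member was not tested.

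**Figure D5:**
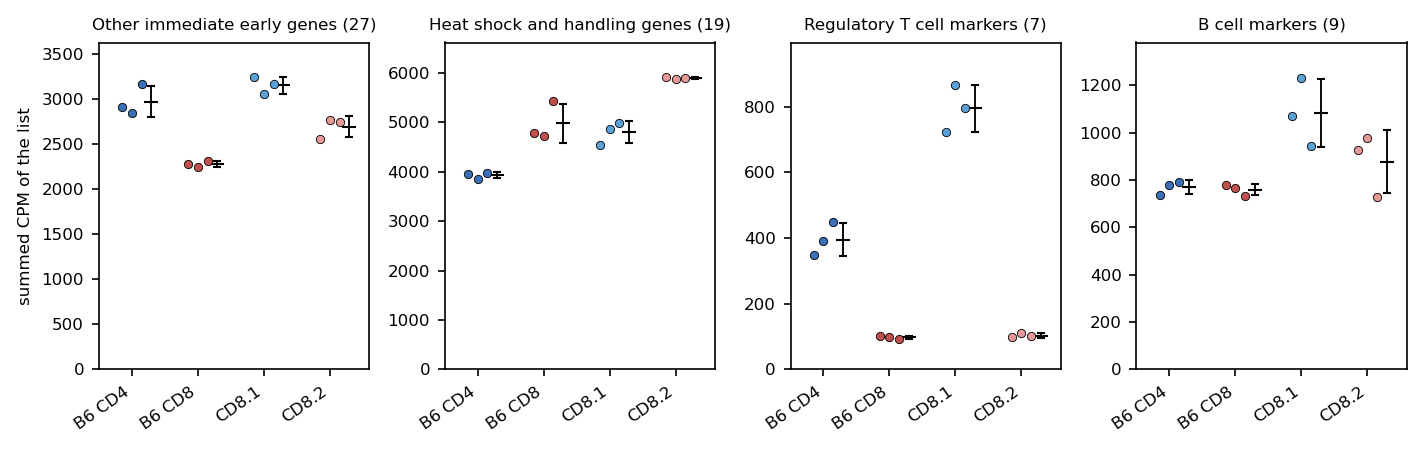
Summed CPM of 4 gene lists in each sample. Points are the 12 samples by group, bars are mean ± SD (n = 3), and each axis starts at 0. Heat shock and handling genes are lowest in B6 CD4+ samples and highest in CD8.2 samples, and regulatory T cell markers are highest in CD8.1 samples.

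The genes whose pattern over the 12 samples was most like that of *Fos*, *Jun* and *Batf* were found by Pearson's r of log2 CPM among 9161 genes with a mean of at least 5 CPM. These values are descriptions over samples that fall into 4 groups, and they carry no test. The closest to *Fos* were *Tbc1d16* (r = 0.930), *Slfn5* (0.924) and *Gm11707* (0.920). Those closest to *Jun* were *Mllt10* (0.906), *Nipal3* (0.896) and *Rbms1* (0.881), and those closest to *Batf* were *Ap3s1* (0.951), *Snx3* (0.937) and *Oaz2* (0.923). No AP-1 member could enter these lists, since members were left out of the candidates.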

How the data were processed

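RNA-seq counts were analysed for sorted LN T cells of 4 groups with 3 samples each, grouped by the sample labels. The authors made libraries with a SMARTer low-input kit, aligned the read pairs with STAR (mm10) and counted with RSEM, and the table they deposited holds whole-number counts that were not normalized. The submitters' processing notes also name limma, and tool versions, annotation release and use of strand are not given in the sources used here. All columns were matched to samples by name, with 0 left unmapped. The total count per sample, 18667470 to 37110500, sets the counting precision, and single genes with few counts are described as such.

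Counts were fitted by edgeR 4.0.16 under R 4.3.3 (quasi-likelihood test, TMM scaling, filterByExpr over the 4 groups), with all 12 samples in 1 model and Benjamini-Hochberg adjustment over 13118 genes. A gene was called at an adjusted p under 0.05, two-sided. Standard errors are the log2 fold change divided by the root of its F statistic. The alternatives were DESeq2 1.42.0 (size factors or Wald test), limma-voom (limma 3.58.1), other filters on low counts, other call rules, only the groups compared, a replicate block, and each sample left out. On simulated data with 200 genes changed 2-fold among 13118, the fit recovered 74% of the changed genes between B6 CD4+ and CD8+ T cells with 7 calls among unchanged genes, and 74% between CD8.1 and CD8.2 cells with 5. Replicates differed by more than sampling noise (chi-square per gene 8.58 to 85.0). Within B6 mice, the deviations of a CD4+ and a CD8+ sample sharing a replicate number had correlations of 0.126, 0.138 and 0.257. Samples were matched here by the label numbers alone. The correlations between CD8.1 and CD8.2 samples were -0.0039, 0.0905 and 0.119, and correlations across strains were all negative. Differently numbered samples were not compared, so these values cannot decide whether the label numbers pair samples. The main fit used no pairing, and the replicate block was run as an alternative.

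Although the rule for the members is a list of symbols, members and gene lists were chosen with earlier results of these data known. All 9 members are given, and from each further list up to 4 genes with the smallest adjusted p in a comparison are named. Genes like *Fos*, *Jun* and *Batf* were the 3 with the highest Pearson's r of log2 CPM (prior count 2). Markers of other cells are given as whole lists, and *Nfat5*, *Hspa1a*, *Hspa1b*, *Prdx2* and *Gm11175* and single markers of the label and cell checks were named for what they measure or overlap. *Socs3* and *Dnajb4* were named because they went against the direction of their list. Positions, exons and lengths are from GENCODE M21 on GRCm38, in which *Batf* carries a later version than in the deposited table, and promoters are from RefSeq. Figures were drawn with matplotlib 3.10.9. The study's other experiments were not used here.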

Additional observations from a re-analysis of the deposited data

Results flagged for a closer look

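*Elk3*, a partner of serum response factor upstream of *Fos*, was the gene of the AP-1 pathway lists whose lineage difference differed between the strains by the interaction test, 0.46 on the log2 scale with an adjusted p of 0.0421 (edgeR's quasi-likelihood test). Its log2 fold change was -0.47 for CD4+ over CD8+ cells of B6 mice and -0.01 for CD8.1 over CD8.2 cells. Mean levels were 51.1 CPM in CD4+ and 70.7 in CD8+ cells of B6 mice, 52.6 in CD8.1 and 52.9 in CD8.2 cells. This was 1 call among 45 tested genes of the 3 lists, 2.22%, where 1.87% of all genes were called. Under 18 other settings, tried after seeing the data, the interaction was 0.40 to 0.50 with adjusted p-values of 0.0030 to 0.141, and the call was lost in 11: without a filter on low counts (0.45) and in 10 of the 12 fits that left out 1 library, all but those without B6 CD8+ replicate 3 or CD8.1 replicate 1.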

How the results depend on the processing

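Over 48 fold changes of members and 890 alternative values, 830 kept their direction and their side of the threshold, 21 lost the call, 19 gained it and 20 changed sign, none of these past the threshold in either setting. With more than 5-fold required, 0 members were called in each comparison that had calls, where 3.29%, 3.32%, 0.61% and 0.198% of all genes were called. With more than 1.5-fold required, 2 were called between the B6 groups (*Fos* and *Fosl2*), 1 between CD8.1 and CD8.2 (*Fosl2*), 1 between CD8.1 and B6 CD4+ (*Fos*) and 1 for the mean strain difference (*Fos*), where 13.1%, 14.7%, 6.08% and 5.39% of all genes were called. For CD8.2 against B6 CD8+, 2 members were called with DESeq2's Wald test or without a filter (*Fos* and *Junb*), 1 with limma-voom (*Fos*) and 3 with only these groups in the fit (*Fos*, *Fosl2* and *Junb*), and the share of all genes was 11.2%, 6.80%, 8.54% and 20.3%, against 7.94% in the fit of all 12 samples. With only the groups compared, CD8.1 against B6 CD4+ gave 2 (*Fos* and *Batf*), with 5.34% of all genes against 12.8%. Leaving out 1 library gave 1 to 3 calls for CD8.1 against B6 CD4+, with 5.69% to 22.1% of all genes called. For CD8.2 against B6 CD8+ it gave 0 to 2, with 3.21% to 14.3% of all genes. Members were called in this pair without CD8.1 replicate 1 (*Fos* and *Junb*, 14.3% of all genes), CD8.1 replicate 3 (*Junb*, 8.39%) or CD8.2 replicate 1 (*Fos*, 4.12%). *Fos* was called between CD8.1 and CD8.2 without CD8.2 replicate 1 (0.71). The causes were not tested.

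With a replicate block, 4 members were called between the B6 groups, 4 between CD8.1 and CD8.2, 3 between CD8.1 and B6 CD4+, 0 between CD8.2 and B6 CD8+, and 0 in the interaction. In the same fits 24.3%, 31.3%, 11.4%, 6.72% and 2.52% of all genes were called. The mean strain difference gave 3, beside 18.8% of all genes, with *Fosl2* lost at an adjusted p of 0.0569, and the block changed no other call. The interaction of *Jun*, -0.012, was 0.065 with limma-voom, 0.014 with the replicate block and -0.20 to 0.25 without single libraries. Without single libraries, the values whose sign changed ranged from -0.27 to 0.15 for *Fosb* and from -0.077 to 0.38 for *Jun* between the B6 groups, from -0.23 to 0.20 for *Jund* and -0.11 to 0.012 for *Ier2* in CD8.1 against B6 CD4+, from -0.39 to 0.062 for *Fosb* in CD8.2 against B6 CD8+, from -0.013 to 0.24 for the interaction of *Junb*, and from -0.026 to 0.047 for the mean strain difference of *Ier2*. Few counts limit *Atf3*, *Jund* and *Fosb* (at most 38 per sample), and for *Jund* the gene model behind the counts is also uncertain.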
